A study of Mus musculus with 15 samples.

Results

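AP-1 is a family of transcription factors, and 10 of its genes that respond within minutes to hours of a stimulus were followed in bone marrow-derived macrophages (BMDMs) lacking or retaining STAT5. They were chosen by name, and all 10 of 10 were found among the 55385 genes of the count table: the FOS genes Fos, Fosb, Fosl1 and Fosl2, the JUN genes Jun, Junb and Jund, and the related genes Atf3, Batf and Maff. BMDMs were grown from the bone marrow of BALB/c mice at 6 wk of age. The genotypes were STAT5 fl/fl with floxed Stat5 alleles, and STAT5 cKO, in which crossing to Csf1r-iCre mice deleted the floxed alleles in myeloid cells. The stimulation lasted 2 h, and cells of each genotype received serum-free DMEM alone, recombinant mouse GM-CSF (rmGM-CSF) at 20 ng/mL, or 4T1 CM, the medium conditioned by the mouse mammary tumor cell line 4T1. Each of the 3 treatments has 2 STAT5 fl/fl and 3 STAT5 cKO replicates, 15 libraries in all, and the study removed 1 STAT5 fl/fl replicate at quality control. Both genotypes carry the floxed alleles, and the loss of STAT5 and the presence of the Cre recombinase cannot be told apart where only STAT5 cKO mice carry Cre.

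AP-1 proteins bind DNA as dimers held together by a leucine zipper, next to a basic region that contacts DNA (the bZIP fold). FOS proteins pair with JUN proteins, JUN proteins also pair with each other, BATF pairs with JUN proteins in place of FOS, and ATF and MAF proteins also form mixed dimers within the bZIP class. Many of these genes are immediate early genes, which MAP kinases switch on without new protein synthesis and whose mRNAs are short-lived, and in macrophages AP-1 takes part in inflammatory and matrix-remodeling gene expression. GM-CSF signals through JAK2 to STAT5, and also through the RAS and MAP kinase pathway that reaches the FOS and JUN genes.

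The members lie on 8 chromosomes of GRCm38, the build of the count table. Fos (chr12:85473890-85477273, plus strand) and Batf (chr12:85686669-85709087, plus) share a chromosome, as do Junb (chr8:84974484-84978718, minus) and Jund (chr8:70698949-70700616, plus). The other FOS genes are Fosb (chr7:19302696-19310051, minus), Fosl1 (chr19:5447547-5455946, plus) and Fosl2 (chr5:32135801-32157842, plus). Jun is at chr4:95049034-95052222 (minus), Atf3 at chr1:191170296-191218039 (minus) and Maff at chr15:79346621-79359076 (plus). Exons of 4 members share bases with a gene on the opposite strand, Fosl1 with Ccdc85b (1163 bases), Jun with Junos (232), Junb with Prdx2 (173) and Jund with Gm11175 (877). The fragments were counted by strand.

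The bases just before the start of transcription are shown for Fos and Fosb, which were higher in STAT5 cKO cells with both stimuli, and for Fosl2, Atf3 and Maff, which were lower in these cells with rmGM-CSF. They are from RefSeq (GRCm38.p6), which gave a window of 250 bases before and 50 after a start for 9 of 10 members, and run 5′ to 3′ on the strand of the gene up to the base before the start. Capitals mark matches to TGANTCA (the AP-1 site), TGACNTCA (bound by ATF and JUN dimers), TGACG (the core of a CREB site, contained in TGACNTCA where N is G) and TTCNNNGAA (the STAT site), searched on both strands.

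Fos (chr12:85473640-85473889, plus): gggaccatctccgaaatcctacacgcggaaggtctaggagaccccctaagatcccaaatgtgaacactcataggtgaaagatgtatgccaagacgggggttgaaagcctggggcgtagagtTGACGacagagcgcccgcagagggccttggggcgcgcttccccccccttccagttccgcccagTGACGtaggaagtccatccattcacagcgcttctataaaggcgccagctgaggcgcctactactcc

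Fosb (chr7:19310046-19310295, minus): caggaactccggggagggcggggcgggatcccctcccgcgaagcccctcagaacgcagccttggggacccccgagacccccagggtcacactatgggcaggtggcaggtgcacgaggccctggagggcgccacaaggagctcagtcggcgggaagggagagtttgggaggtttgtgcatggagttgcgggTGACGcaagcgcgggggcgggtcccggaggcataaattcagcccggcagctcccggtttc

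Fosl2 (chr5:32136222-32136471, plus): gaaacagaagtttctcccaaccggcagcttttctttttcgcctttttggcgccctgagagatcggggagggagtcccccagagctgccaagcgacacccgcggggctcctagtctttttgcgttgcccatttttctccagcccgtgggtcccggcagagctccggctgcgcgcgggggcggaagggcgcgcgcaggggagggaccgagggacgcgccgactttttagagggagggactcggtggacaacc

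Atf3 (chr1:191183334-191183583, minus): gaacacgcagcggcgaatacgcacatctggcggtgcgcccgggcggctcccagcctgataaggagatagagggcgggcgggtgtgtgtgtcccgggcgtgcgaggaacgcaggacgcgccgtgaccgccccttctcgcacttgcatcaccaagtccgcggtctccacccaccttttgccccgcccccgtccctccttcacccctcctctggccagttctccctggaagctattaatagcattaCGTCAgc

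Maff (chr15:79347270-79347519, plus): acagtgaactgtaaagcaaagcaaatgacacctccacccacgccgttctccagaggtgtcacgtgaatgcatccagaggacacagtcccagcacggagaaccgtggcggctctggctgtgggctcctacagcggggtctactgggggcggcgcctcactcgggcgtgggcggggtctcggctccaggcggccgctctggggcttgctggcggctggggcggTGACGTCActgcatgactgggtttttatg

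Fos carries TGACG at positions -129 and -66 from the start, and Fosb carries it at -60. Atf3 has the same letters on the opposite strand, CGTCA, at -7. The printed stretch of Maff, the second of its 3 RefSeq windows and chosen after its letters were seen, has TGACGTCA at -29, and after the start, at 28, the same window has the STAT-type letters TTCCGGGAA. Jun has TGACATCA at -45, as has the third Maff window, which also has CGTCA at -122. TGACG was found at -106 in Junb and at -98 in Batf. None of these motifs was found in the windows of Fosl2 and Jund or in the first Maff window. The RefSeq start of Jund lies well upstream of the gene as given above, and those of Fosl2, Atf3 and the printed Maff window lie well inside the gene. Over all 32851 RefSeq windows, TGACG was found in 20.8%, TGACNTCA in 8.83%, TTCNNNGAA in 8.3%, TGANTCA in 7.81% and the CArG box, bound by SRF, in 1.63%. TGANTCA and the CArG box were found in none of the windows of the members. Bases outside these windows were not searched, so sites further upstream would be missed. A match is a description of the letters and not evidence of binding. TGACG and TGACNTCA were added to the search after the windows had been seen.

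Library totals ranged from 16016736 to 22883108 counts with a median of 21379480, and 3 counts, taken as the floor of detection, correspond to between 0.131 and 0.187 CPM (counts scaled to a common library total). This floor covers counting error only. Levels are given as CPM normalized by the relative log expression method. Stat5a had at most 3 counts and Stat5b at most 4 in every STAT5 cKO library, against at least 637 and 977 in every STAT5 fl/fl library. All 8 macrophage markers were above the floor in every library. T or NK cell markers were at or under the floor throughout (4 of 4), as were the neutrophil genes Ly6g, S100a9, Mpo and Elane (4 of 6 markers) and the epithelial keratins Krt8, Krt14 and Krt18 (3 of 5 markers). Dendritic cell markers (5, with Xcr1 at or under the floor) summed to 1.14 to 2.0 CPM with DMEM, 2.31 to 4.36 CPM with rmGM-CSF and 1.29 to 2.98 CPM with 4T1 CM. Zbtb46 was called higher with rmGM-CSF than with DMEM in STAT5 fl/fl (log2 change 2.35, SE 0.44, adjusted p = 0.000416) and STAT5 cKO cells (1.87, SE 0.34, adjusted p = 0.000375). The neutrophil gene S100a8 was called higher with 4T1 CM in STAT5 cKO cells (1.96, SE 0.48, adjusted p = 0.00246), and the neutrophil sum was at most 2.46 CPM. B cell markers summed to at most 0.228 CPM. In bulk RNA, fewer cells of a type and less RNA per cell cannot be told apart.

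The first question was which members depended on STAT5 in unstimulated and stimulated cells. A member was called changed at a Benjamini-Hochberg adjusted p under 0.01 in edgeR's quasi-likelihood test over 13005 genes, a filter that all 10 members passed, Fosl1 through the STAT5 cKO and 4T1 CM libraries. With DMEM, 1 of 10 members (Fos) was higher in STAT5 cKO BMDMs and none was lower, where 0.938% of all genes were called higher and 1.55% lower. With rmGM-CSF, 2 members (Fos and Fosb) were higher and 3 (Fosl2, Atf3 and Maff) lower, against 3.57% and 6.24% of all genes. With 4T1 CM, 4 members (Fos, Fosb, Fosl1 and Junb) were higher and none lower, against 4.13% and 3.57% of all genes. At an unadjusted p under 0.05, 3 members were lower with DMEM (Jun, Atf3 and Maff) and 1 with 4T1 CM (Atf3). DESeq2 called none of these. In either direction, 7 members had such a p in unstimulated cells, against 2824 of all 13005 genes. Those higher there were Fos, Fosl2, Junb and Jund. For rmGM-CSF the counts were 10 members and 3767 genes, and 4T1 CM gave 6 members and 3683 genes. The median log2 difference of the members was -0.27 with rmGM-CSF and 0.20 with 4T1 CM, where the median of all genes was 0.00 and 0.01. With DMEM it was 0.01 over all 10 members and 0.24 over the 9 members other than Fosl1, where the median of all genes was 0.00. Fos was thus called in every treatment, Fosb in both stimulated conditions, and the members called lower were all found with rmGM-CSF. Whether these treatments differ is answered by the interaction tests given with each gene.

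**Figure D1:**
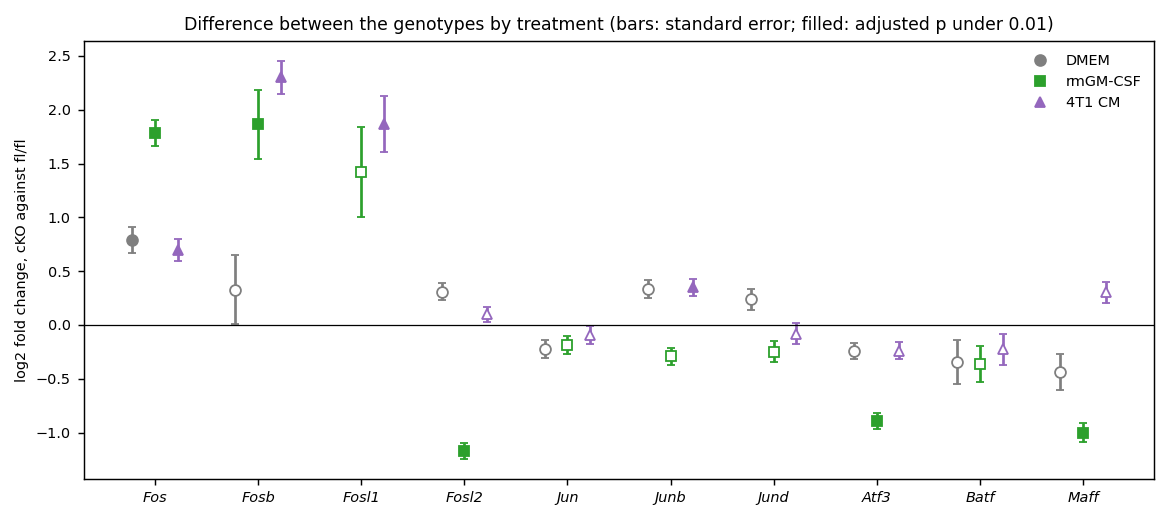
Log2 fold change of each AP-1 gene in STAT5 cKO (n = 3) against STAT5 fl/fl (n = 2) BMDMs, with DMEM (circles), rmGM-CSF (squares) and 4T1 CM (triangles). Bars are standard errors, filled symbols have an adjusted p under 0.01, and Fosl1 with DMEM is left out because its counts were at the floor. Fos is above 0 in all 3 treatments (0.79, 1.78 and 0.70), and Fosl2, Atf3 and Maff are called below 0 with rmGM-CSF (-1.17, -0.89 and -1.0).

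The second question was how the members responded to each stimulus. In STAT5 fl/fl BMDMs, rmGM-CSF raised 5 of 10 members over DMEM (Fosl2, Junb, Jund, Batf and Maff) and lowered none (1 at an unadjusted p under 0.05, none by DESeq2), against 15.9% of all genes higher and 12.6% lower. In STAT5 cKO BMDMs, it raised 7 (Fos, Fosb, Fosl1, Fosl2, Junb, Batf and Maff) and lowered 1 (Atf3), against 13.3% and 10.2%. With 4T1 CM, all 10 members were called in both genotypes, 9 higher and Atf3 lower, against 19.2% of all genes higher and 18.2% lower in STAT5 fl/fl and 19.3% and 18.4% in STAT5 cKO cells. The median log2 change of the members with rmGM-CSF was 0.93 in STAT5 fl/fl and 1.10 in STAT5 cKO cells. With 4T1 CM it was 2.07 and 2.20, and these medians are the same with Fosl1 at its lower bound. With only the libraries compared, 9 were called in STAT5 fl/fl cells, since Fosl1 did not pass the low-count filter and was not tested. The median of all genes lay between -0.01 and 0.02 in these 4 comparisons. Both comparisons of a genotype share the same DMEM libraries.

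**Figure D2:**
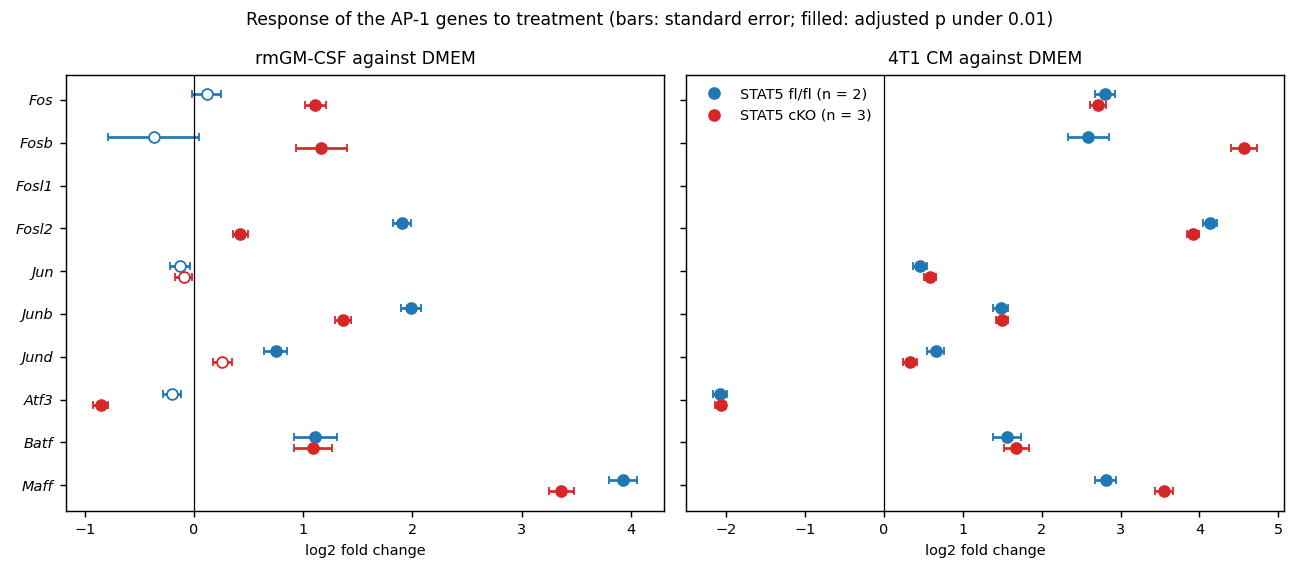
Log2 fold change of each AP-1 gene over DMEM with rmGM-CSF (left) and 4T1 CM (right), in STAT5 fl/fl (blue, n = 2) and STAT5 cKO (red, n = 3) BMDMs. Bars are standard errors, filled points have an adjusted p under 0.01, and Fosl1 is left out because its DMEM counts were at the floor. With rmGM-CSF the genotypes were called apart for Fos (0.12 against 1.11), Fosl2 (1.90 against 0.42), Junb (1.99 against 1.36) and Atf3 (-0.21 against -0.85). The gap of Fosb with rmGM-CSF (-0.37 against 1.17) was not called. With 4T1 CM the largest gap is that of Fosb (2.59 against 4.56).

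Between the stimuli, 4T1 CM gave higher levels than rmGM-CSF for 4 members in STAT5 fl/fl BMDMs (Fos, Fosb, Fosl2 and Jun) and lower levels for 3 (Junb, Atf3 and Maff), against 13.8% of all genes higher and 16.7% lower. In STAT5 cKO BMDMs, 6 members were higher with 4T1 CM (Fos, Fosb, Fosl1, Fosl2, Jun and Batf) and 1 lower (Atf3), against 16.6% and 17.5%. The effect of genotype differed between rmGM-CSF and DMEM for 4 members (Fos, Fosl2, Junb and Atf3), where 3.11% of all genes were called in either direction. Between 4T1 CM and DMEM it differed for 1 member (Fosb), against 1.27% of all genes, and between 4T1 CM and rmGM-CSF for 5 (Fos, Fosl2, Junb, Atf3 and Maff), against 1.47%.

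Fos encodes the founding FOS protein, which binds DNA only as a dimer with a partner such as JUN. With DMEM, its level was 29.95 and 30.1 CPM in the STAT5 fl/fl libraries and 53.7, 51.6 and 50.5 CPM in the STAT5 cKO libraries. With rmGM-CSF it was 36.3 and 29.0 CPM in STAT5 fl/fl and 104.3, 117.9 and 114.0 CPM in STAT5 cKO cells. After 4T1 CM the level was 195.1 and 224.2 CPM in STAT5 fl/fl and 341.0, 290.2 and 389.6 CPM in STAT5 cKO cells. Every STAT5 cKO library thus lay above every STAT5 fl/fl library of its treatment. The log2 difference was 0.79 (SE 0.12, adjusted p = 0.00069) with DMEM, 1.78 (SE 0.12, adjusted p = 8.98e-09) with rmGM-CSF and 0.70 (SE 0.10, adjusted p = 0.000209) with 4T1 CM. The call with DMEM was lost without replicate 112 (adjusted p = 0.0129) or 113 (adjusted p = 0.0179), each of which leaves a single STAT5 fl/fl library, and the call with 4T1 CM was lost with only the libraries compared in the model (adjusted p = 0.0116). In STAT5 fl/fl cells, the rmGM-CSF libraries lay on both sides of the DMEM libraries (log2 change 0.12, SE 0.13, adjusted p = 0.514). In STAT5 cKO cells, rmGM-CSF raised Fos by 1.11 (SE 0.10, adjusted p = 1.06e-07) on the log2 scale. The effect of genotype was larger with rmGM-CSF than with DMEM by 0.99 (SE 0.16, adjusted p = 0.000987; adjusted p = 0.0485 without replicate 113). The response to 4T1 CM was 2.80 (SE 0.13) in STAT5 fl/fl and 2.71 (SE 0.10) in STAT5 cKO cells, a difference of -0.09 (SE 0.15, adjusted p = 0.863).

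Fosb encodes a FOS protein that also occurs as a truncated splice form, and gene-level counts do not separate the forms. With DMEM it was near the lower end of the range, at 1.32 and 1.73 CPM in STAT5 fl/fl and 1.66, 1.66 and 2.43 CPM in STAT5 cKO libraries. With rmGM-CSF it was 1.5 and 0.912 CPM in STAT5 fl/fl against 4.71, 4.73 and 3.32 CPM in STAT5 cKO libraries. After 4T1 CM the level was 9.79 and 8.73 CPM in STAT5 fl/fl against 54.2, 43.3 and 39.5 CPM in STAT5 cKO libraries. The groups overlapped with DMEM and were apart with both stimuli. The log2 difference between the genotypes was 0.33 (SE 0.32, adjusted p = 0.598) with DMEM, 1.87 (SE 0.32, adjusted p = 0.000505) with rmGM-CSF and 2.30 (SE 0.16, adjusted p = 3.87e-08) with 4T1 CM. The rmGM-CSF call was lost without replicate 113 (1.53, adjusted p = 0.0362). Fosb rose with rmGM-CSF in STAT5 cKO cells by 1.17 (SE 0.23, adjusted p = 0.000912), a call lost without replicate 115 (adjusted p = 0.0304), and was at -0.37 (SE 0.41, adjusted p = 0.513) in STAT5 fl/fl cells. The difference between these responses, 1.53 (SE 0.47, adjusted p = 0.0826), did not pass the test, although the likelihood ratio test (adjusted p = 0.0024) and DESeq2 (adjusted p = 0.00321) called it. Between the stimuli, the effect of genotype on Fosb was not called different in the interaction test (0.44, SE 0.41, adjusted p = 0.767). With 4T1 CM, Fosb rose by 2.59 (SE 0.26) in STAT5 fl/fl and 4.56 (SE 0.17) in STAT5 cKO cells, and the difference of 1.97 (SE 0.38, adjusted p = 0.00654) passed. That call was lost with only the libraries compared in the model (adjusted p = 0.0135) and without replicate 112, 113, 114 or 115, with adjusted p-values up to 0.251.

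Fosl1 encodes FRA-1, a FOS protein without the transactivation domain of FOS. With DMEM it was at or under the floor, with at most 3 counts in every library. With rmGM-CSF it reached 0.436 and 0.59 CPM in STAT5 fl/fl and 1.13, 1.74 and 1.28 CPM in STAT5 cKO libraries. 4T1 CM brought it to 1.36 and 0.929 CPM in STAT5 fl/fl and 4.5, 4.4 and 3.76 CPM in STAT5 cKO libraries, so that the genotypes did not overlap with either stimulus. Against the floor, averaged over the DMEM libraries of a genotype, rmGM-CSF gave at least 3.9-fold higher levels in STAT5 fl/fl and at least 10.6-fold higher in STAT5 cKO cells, and 4T1 CM at least 8.71-fold and 32.3-fold. The rmGM-CSF response passed the test in STAT5 cKO cells (adjusted p = 2.25e-06) and not in STAT5 fl/fl cells (adjusted p = 0.0184; 0.00157 by the likelihood ratio test and 0.00951 by the legacy quasi-likelihood test), and the difference between them was not called (adjusted p = 0.584). With 4T1 CM the level in STAT5 cKO cells exceeded that in STAT5 fl/fl cells by 1.86 (SE 0.26, adjusted p = 5.51e-05), from 18 to 28 counts in the STAT5 fl/fl libraries and 83 to 95 in the STAT5 cKO libraries. With rmGM-CSF the difference was 1.42 (SE 0.42, adjusted p = 0.0232).

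Fosl2 encodes FRA-2, the other FOS protein without that domain, and it ran opposite to Fos between the genotypes with rmGM-CSF. With DMEM its level was 36.4 and 36.7 CPM in STAT5 fl/fl and 46.4, 47.6 and 41.9 CPM in STAT5 cKO libraries. With rmGM-CSF it was 137.9 and 135.6 CPM in STAT5 fl/fl against 57.4, 65.2 and 59.6 CPM in STAT5 cKO libraries. With 4T1 CM it was 615.2 and 662.5 CPM in STAT5 fl/fl and 678.1, 643.8 and 734.3 CPM in STAT5 cKO libraries, and only there did the genotypes overlap. Fosl2 was lower in STAT5 cKO cells with rmGM-CSF (log2 difference -1.17, SE 0.07, adjusted p = 4.26e-09). The difference was 0.31 (SE 0.08, adjusted p = 0.0265) with DMEM, which DESeq2 called (adjusted p = 0.00762), and 0.10 (SE 0.07, adjusted p = 0.372) with 4T1 CM. Fosl2 rose with rmGM-CSF by 1.90 (SE 0.09, adjusted p = 9.96e-12) in STAT5 fl/fl and by 0.42 (SE 0.07, adjusted p = 0.000136) in STAT5 cKO cells. These responses differed by -1.48 (SE 0.11, adjusted p = 2.05e-07). With 4T1 CM the increase was 4.13 (SE 0.09) in STAT5 fl/fl and 3.92 (SE 0.07) in STAT5 cKO cells, or 17.5-fold and 15.1-fold, and the difference of -0.21 (SE 0.11, adjusted p = 0.39) was not called.

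**Figure D3:**
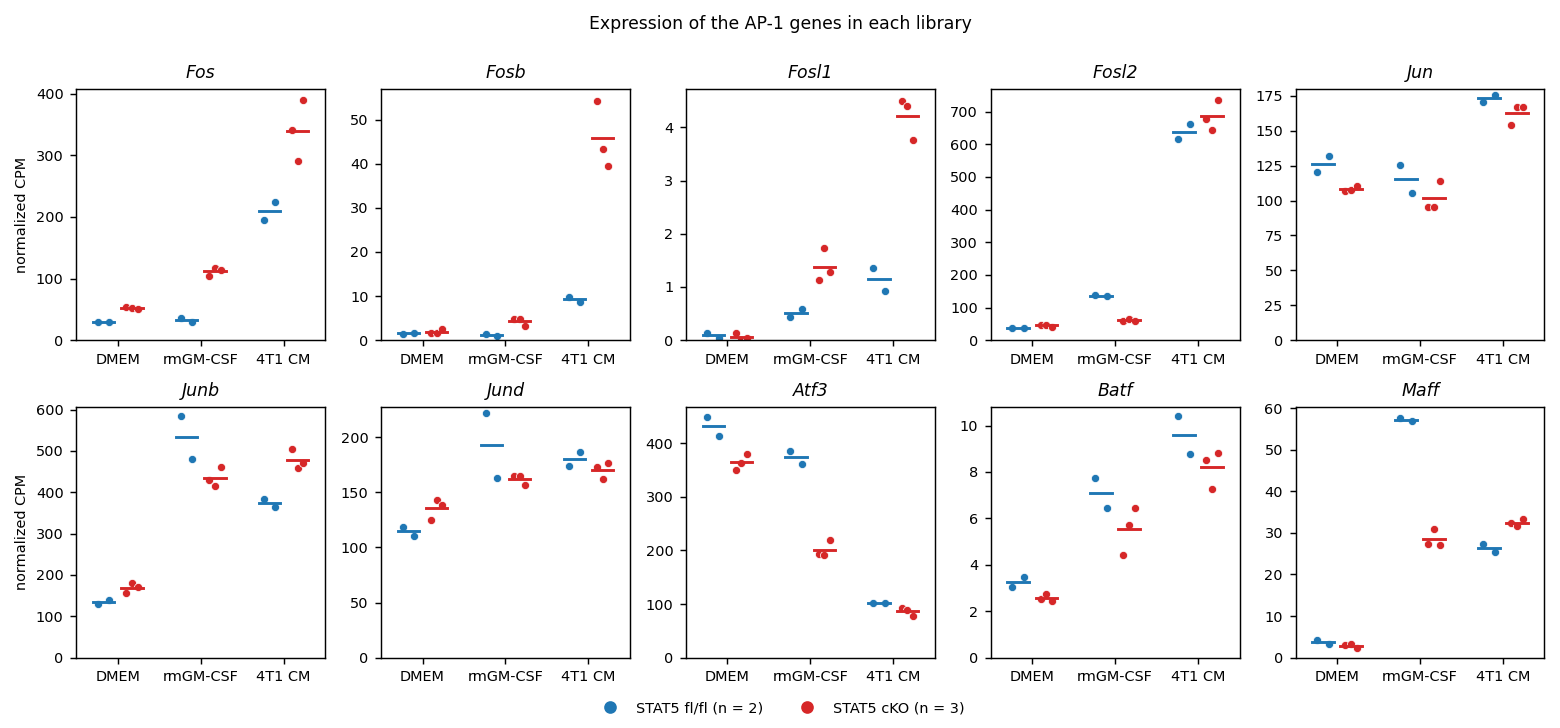
Normalized CPM of each AP-1 gene in every library of STAT5 fl/fl (blue, n = 2) and STAT5 cKO (red, n = 3) BMDMs by treatment, on linear axes that start at 0. Each point is 1 library and each line the mean of its group. Fos and Fosb are higher in the STAT5 cKO libraries with both stimuli, and Fosl2, Atf3 and Maff are lower in these libraries with rmGM-CSF, where Maff is at 57.6 and 56.8 CPM in STAT5 fl/fl libraries and between 27.2 and 30.9 CPM in STAT5 cKO libraries.

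Among the JUN genes, Junb encodes a JUN protein with weaker transactivation than JUN itself. With DMEM its level was 129.7 and 139.2 CPM in STAT5 fl/fl and 157.1, 179.3 and 170.7 CPM in STAT5 cKO libraries. With rmGM-CSF it was 584.4 and 480.7 CPM in STAT5 fl/fl and 430.3, 415.1 and 460.8 CPM in STAT5 cKO libraries. In 4T1 CM the values were 384.5 and 365.1 CPM in STAT5 fl/fl and 503.8, 458.6 and 469.7 CPM in STAT5 cKO libraries. The STAT5 cKO libraries were thus the higher ones with DMEM and 4T1 CM and the lower ones with rmGM-CSF, without overlap in any treatment. Only the difference with 4T1 CM passed the test (0.35, SE 0.08, adjusted p = 0.00766), and it no longer passed without any one of the 5 replicates (adjusted p = 0.0121 to 0.0678) or with only the libraries compared (adjusted p = 0.0289). The difference was 0.33 (SE 0.08, adjusted p = 0.0252) with DMEM and -0.29 (SE 0.08, adjusted p = 0.0191) with rmGM-CSF, and DESeq2 called both (adjusted p = 0.00403 and 0.00543). Junb rose with rmGM-CSF by 1.99 (SE 0.09) in STAT5 fl/fl and 1.36 (SE 0.07) in STAT5 cKO cells. These responses differed by -0.62 (SE 0.12, adjusted p = 0.00276). That call was lost without replicate 112 (-0.43), 115 (-0.54, adjusted p = 0.0253) or 116 (-0.66, adjusted p = 0.0114). With 4T1 CM Junb rose by 1.48 (SE 0.09) and 1.5 (SE 0.07), a difference of 0.02 (SE 0.12, adjusted p = 0.973). In STAT5 fl/fl cells Junb was lower with 4T1 CM than with rmGM-CSF (log2 change -0.51, SE 0.09, adjusted p = 0.0002; adjusted p = 0.0144 without replicate 112).

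Jun encodes the JUN protein, the main partner of FOS and a target of the JNK kinases, and it moved little. Over all libraries its level lay between 95.1 and 175.8 CPM, and it was not called between the genotypes in any treatment, with log2 differences of -0.22 (SE 0.08), -0.19 (SE 0.09) and -0.09 (SE 0.08) with DMEM, rmGM-CSF and 4T1 CM. It was not called with rmGM-CSF in either genotype (-0.13, SE 0.09, and -0.09, SE 0.08). With 4T1 CM it rose by 0.46 (SE 0.09, adjusted p = 0.000511) in STAT5 fl/fl and 0.59 (SE 0.08, adjusted p = 4.43e-06) in STAT5 cKO cells. The STAT5 fl/fl call was lost without replicate 112 (adjusted p = 0.0165).

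Jund encodes the JUN protein that is commonly present in unstimulated cells. Its level lay between 110.2 and 222.3 CPM over all libraries, and the genotypes were not called different in any treatment. With rmGM-CSF the difference was -0.25 (SE 0.10, adjusted p = 0.0937), and it ran from -0.45 to -0.0079 without 1 replicate. In STAT5 fl/fl cells Jund rose with rmGM-CSF by 0.75 (SE 0.11, adjusted p = 2.56e-05), although the 2 libraries were apart (222.3 and 163.0 CPM). In STAT5 cKO cells the change was 0.26 (SE 0.09, adjusted p = 0.0271), which was called with only the libraries compared (adjusted p = 0.00326). The 4T1 CM response passed in STAT5 fl/fl (0.65, SE 0.11, adjusted p = 6.96e-05) and in STAT5 cKO cells (0.33, SE 0.09, adjusted p = 0.00408), and the latter call was lost without replicate 114 (adjusted p = 0.0621) or 116 (adjusted p = 0.0349). The responses of the genotypes were not called different with either stimulus (adjusted p = 0.0515 and 0.283).

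Atf3 encodes a stress-induced ATF factor that restrains inflammatory genes in macrophages, and it was the member that fell. With DMEM its level was 450.0 and 413.1 CPM in STAT5 fl/fl and 349.8, 364.1 and 379.8 CPM in STAT5 cKO libraries. With rmGM-CSF it was 386.4 and 362.2 CPM in STAT5 fl/fl and 194.2, 191.8 and 219.1 CPM in STAT5 cKO libraries. In 4T1 CM the values were 102.9 and 101.6 CPM in STAT5 fl/fl and 92.7, 88.8 and 78.6 CPM in STAT5 cKO libraries. All STAT5 cKO libraries lay under the STAT5 fl/fl libraries of their treatment, and only the rmGM-CSF difference passed the test (-0.89, SE 0.07, adjusted p = 1.41e-07), with -0.24 (SE 0.07, adjusted p = 0.0575) with DMEM and -0.24 (SE 0.08, adjusted p = 0.0491) with 4T1 CM. With rmGM-CSF the change from DMEM was -0.21 (SE 0.08, adjusted p = 0.0553) in STAT5 fl/fl and -0.85 (SE 0.07, adjusted p = 2.78e-08) in STAT5 cKO cells. The difference of -0.65 (SE 0.11, adjusted p = 0.000891) was lost without either STAT5 fl/fl replicate (adjusted p = 0.0195 and 0.0323). With 4T1 CM Atf3 fell to 4.22-fold lower levels in STAT5 fl/fl (-2.08, SE 0.09) and 4.21-fold lower in STAT5 cKO cells (-2.07, SE 0.07). These responses differed by 0.00 (SE 0.11, adjusted p = 0.993).

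Maff encodes a small MAF protein, which has a leucine zipper but no transactivation domain. With DMEM its level was 4.28 and 3.25 CPM in STAT5 fl/fl and 2.94, 3.18 and 2.23 CPM in STAT5 cKO libraries. With rmGM-CSF it was 57.6 and 56.8 CPM in STAT5 fl/fl and 27.4, 30.9 and 27.2 CPM in STAT5 cKO libraries. After 4T1 CM the values were 27.3 and 25.3 CPM in STAT5 fl/fl and 32.3, 31.8 and 33.3 CPM in STAT5 cKO libraries. The genotypes did not overlap, and their order turned between rmGM-CSF and 4T1 CM. Maff was lower in STAT5 cKO cells with rmGM-CSF (-1.0, SE 0.09, adjusted p = 3.71e-07), and the difference was 0.30 (SE 0.09, adjusted p = 0.0396) with 4T1 CM and -0.43 (SE 0.17, adjusted p = 0.138) with DMEM. The effect of genotype differed between the 2 stimuli by 1.30 (SE 0.13, adjusted p = 1.09e-05). With rmGM-CSF Maff rose 15.2-fold in STAT5 fl/fl (3.93, SE 0.13) and 10.3-fold in STAT5 cKO cells (3.36, SE 0.12), where the lower bound of Fosl1 was 10.6-fold. The difference between these responses was -0.57 (SE 0.19, adjusted p = 0.124). With 4T1 CM Maff rose by 2.81 (SE 0.13) and 3.55 (SE 0.11). These responses differed by 0.74 (SE 0.19, adjusted p = 0.046), which was not called, although the likelihood ratio test called it (adjusted p = 0.00871).

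Batf encodes a bZIP protein that pairs with JUN proteins and acts with IRF4 and IRF8. Its level rose from between 2.43 and 3.46 CPM with DMEM to between 4.42 and 7.73 CPM with rmGM-CSF and between 7.28 and 10.4 CPM with 4T1 CM. The rmGM-CSF response was 1.11 (SE 0.20, adjusted p = 0.000217; adjusted p = 0.0291 without replicate 112) in STAT5 fl/fl and 1.09 (SE 0.17, adjusted p = 9.47e-05) in STAT5 cKO cells. The 4T1 CM response was 1.56 (SE 0.18, adjusted p = 1.7e-06) and 1.68 (SE 0.16, adjusted p = 1.03e-07). Batf was not called between the genotypes in any treatment, with log2 differences between -0.36 and -0.23 and SEs between 0.14 and 0.21. Batf was higher with 4T1 CM than with rmGM-CSF in STAT5 cKO cells (0.59, SE 0.14, adjusted p = 0.00264), a call lost without replicate 114 (adjusted p = 0.0607) or 116 (adjusted p = 0.0107) and with only the libraries compared (adjusted p = 0.01004).

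Levels of different genes were compared per kilobase of exon (normalized RPKM). With DMEM, Atf3 had the highest level of the members in STAT5 fl/fl (200.4 ± 12.1 RPKM, SD, n = 2) and STAT5 cKO cells (169 ± 6.97, n = 3). Jund (68.7 ± 3.74) and Junb (58.4 ± 2.90) followed in STAT5 fl/fl cells, and in STAT5 cKO cells, in the same order, these 2 overlapped between libraries (75.0 to 85.7 against 68.3 to 77.9 RPKM). Fosb and Fosl1 were the lowest members with DMEM in both genotypes. Junb was the highest with rmGM-CSF (231 ± 31.9 RPKM in STAT5 fl/fl and 189 ± 10.1 in STAT5 cKO cells) and with 4T1 CM (163 ± 5.95 and 207 ± 10.2). Fos rose from the fifth place in STAT5 cKO cells with DMEM (22.1 ± 0.689 RPKM) to the second with 4T1 CM (145 ± 21.1 RPKM). Atf3 stood in the sixth place with 4T1 CM in both genotypes. Fosl2 and Fos overlapped in STAT5 fl/fl cells with rmGM-CSF (14.0 to 14.2 against 12.3 to 15.5 RPKM), as did Jund and Atf3 in STAT5 cKO cells with rmGM-CSF, and Fosb and Fosl1 in both genotypes with rmGM-CSF. The other neighbors in each order did not overlap between the libraries of a group.

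**Figure D4:**
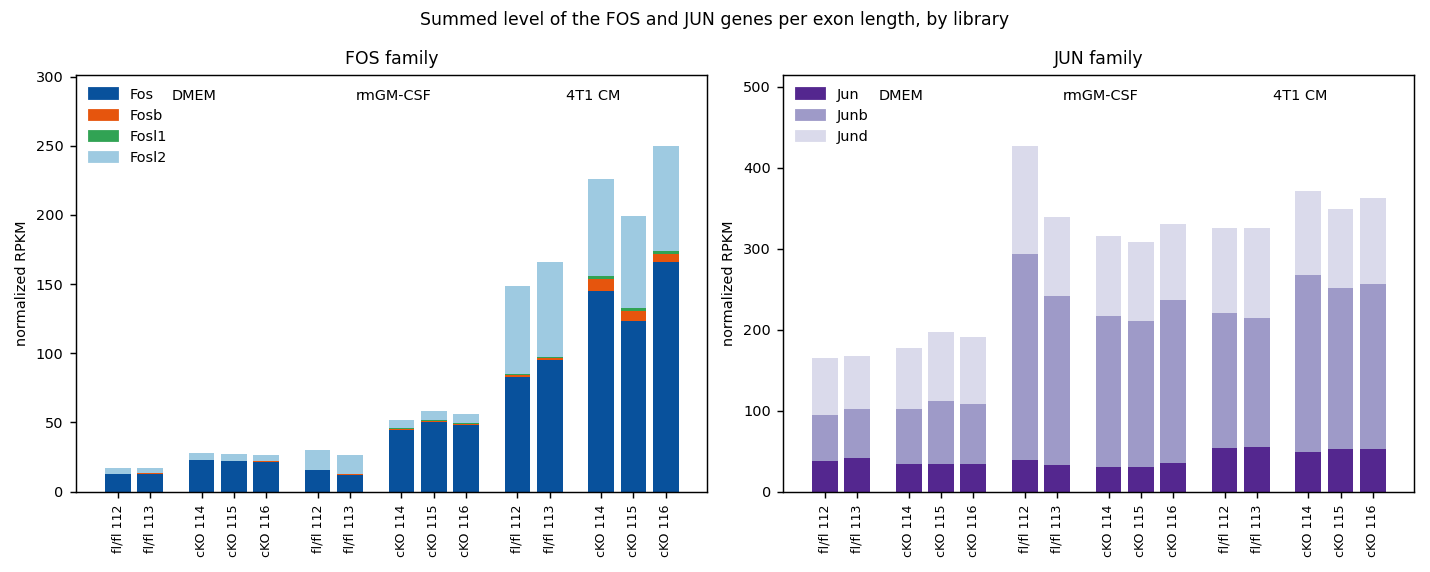
Normalized RPKM of the FOS genes (left) and the JUN genes (right) in each library, stacked by gene, with the genotype and the replicate number under each bar. The FOS total rises from between 16.8 and 27.9 RPKM with DMEM to between 148.7 and 249.7 RPKM with 4T1 CM, and in the rmGM-CSF libraries Fosl2 is about as large as Fos in STAT5 fl/fl and a small part in STAT5 cKO cells.

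The make-up of the FOS family differed between the genotypes, most with rmGM-CSF, where Fos was higher and Fosl2 lower in STAT5 cKO cells. Summed over the 4 FOS genes, the level was 16.8 ± 0.0872 RPKM in STAT5 fl/fl (n = 2) and 27.1 ± 0.872 in STAT5 cKO cells (n = 3) with DMEM, 28.5 ± 2.37 and 55.3 ± 3.47 with rmGM-CSF, and 157 ± 11.9 and 225 ± 25.4 with 4T1 CM. Fos made up 75.8% to 75.9% of this sum in STAT5 fl/fl and 80.9% to 81.9% in STAT5 cKO libraries with DMEM. With rmGM-CSF its share was 46.1% to 51.2% in STAT5 fl/fl and 85.7% to 86.9% in STAT5 cKO libraries. Fosl2 held 47.2% to 52.3% and 11% to 11.5% of the sum in the same libraries. With 4T1 CM, Fos held 55.8% to 57.6% in STAT5 fl/fl and 62.0% to 66.3% in STAT5 cKO libraries, and Fosl2 held 41.3% to 42.7% and 30.4% to 33.4%. The shares of Fos and of Fosl2 did not overlap between the genotypes in any treatment. Fosb and Fosl1 together were a small part, and Fosb reached its highest share, 2.54% to 3.85%, in STAT5 cKO libraries with 4T1 CM. Among the JUN genes, the share of Junb went from 34.1% to 36.0% with DMEM to 59.5% to 61.5% with rmGM-CSF in STAT5 fl/fl libraries, and from 38.6% to 39.5% to between 58.4% and 60.6% in STAT5 cKO libraries.

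Genes around the members were followed by lists written by hand. Of 20 other bZIP genes, none was called between the genotypes with DMEM by edgeR or DESeq2 or had an unadjusted p under 0.05, 2 were higher and 5 lower in STAT5 cKO cells with rmGM-CSF, and 3 higher and 1 lower with 4T1 CM. Of all genes, 0.938% were called higher and 1.55% lower with DMEM. There DESeq2 called 540 of 13002 genes, and 2824 of 13005 had an unadjusted p under 0.05. The shares called higher and lower were 3.57% and 6.24% with rmGM-CSF, and 4.13% and 3.57% with 4T1 CM. Among the list Jdp2, a repressor that pairs with JUN, was higher with 4T1 CM by 0.48 (SE 0.09, adjusted p = 0.000986) and Nfil3 by 0.47 (SE 0.09, adjusted p = 0.00171), and Cebpd was lower (-0.53, SE 0.10, adjusted p = 0.00208). From DMEM to rmGM-CSF, 13 rose and 2 fell in STAT5 fl/fl cells and 10 rose in STAT5 cKO cells, and with 4T1 CM 7 rose and 6 fell in STAT5 fl/fl cells, among them Nfil3 (3.30, SE 0.12), Creb5 (2.86, SE 0.13) and Crem (2.68, SE 0.12). In STAT5 cKO cells 8 rose and 4 fell with 4T1 CM. Of all genes, 15.9% rose and 12.6% fell with rmGM-CSF in STAT5 fl/fl and 13.3% and 10.2% in STAT5 cKO cells, and with 4T1 CM 19.2% and 18.2%, and 19.3% and 18.4%.

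The list of kinases and SRF factors that lie upstream of FOS and JUN transcription held 26 genes. With DMEM none was called between the genotypes by edgeR (0.938% of all genes higher and 1.55% lower). An unadjusted p under 0.05 was found for 7 (2824 of all 13005 genes), and DESeq2 called 2 (540 of 13002 genes). In STAT5 cKO cells 3 were higher and 1 lower with rmGM-CSF, and 5 higher and 2 lower with 4T1 CM, where 3.57% and 6.24% of all genes were higher and lower with rmGM-CSF and 4.13% and 3.57% with 4T1 CM. With 4T1 CM, Mapk14, the p38 alpha kinase, was higher by 0.42 (SE 0.06, adjusted p = 0.000268) and Rps6ka5, the kinase MSK1, by 0.64 (SE 0.12, adjusted p = 0.00134), and Mrtfb, a coactivator of SRF, was lower (-0.48, SE 0.09, adjusted p = 0.00104). From DMEM to rmGM-CSF, 6 rose and 6 fell in STAT5 fl/fl cells and 8 rose and 4 fell in STAT5 cKO cells, and from DMEM to 4T1 CM 9 rose and 6 fell in STAT5 fl/fl cells and 10 rose and 6 fell in STAT5 cKO cells. The 4T1 CM counts stand beside 19.2% of all genes rising and 18.2% falling in STAT5 fl/fl and 19.3% and 18.4% in STAT5 cKO cells, and the rmGM-CSF counts beside 15.9% and 12.6%, and 13.3% and 10.2%. Map2k3, which activates p38, rose with 4T1 CM in STAT5 fl/fl cells by 1.82 (SE 0.08), as did Elk3, an SRF partner (1.51, SE 0.09), and Mrtfa fell (-1.55, SE 0.10). Of 6 genes that act on the decay of AP-1 mRNA or protein, the number lower in STAT5 cKO cells was 1 for DMEM, 2 for rmGM-CSF and 1 for 4T1 CM. The shares of all genes called lower were 1.55%, 6.24% and 3.57%. None was called higher by edgeR, with 1, 2 and 1 higher at an unadjusted p under 0.05 and 1 by DESeq2 (rmGM-CSF). In either direction such a p was found for 2, 5 and 3 of the 6, against 2824, 3767 and 3683 of all 13005 genes. With rmGM-CSF DESeq2 called 590 of 13002 genes higher. The 1 called with 4T1 CM was Zfp36l1, which encodes a protein that binds AU-rich mRNA and speeds its decay (-0.68, SE 0.10, adjusted p = 0.000243). With 4T1 CM in STAT5 fl/fl cells Zfp36 rose by 2.27 (SE 0.08), and Fbxw7 and Itch, ubiquitin ligases of JUN proteins, changed by -1.47 (SE 0.11) and -0.34 (SE 0.07).

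Of 22 genes known as AP-1 targets in some cell type, 20 were tested. Between the genotypes, 1 was higher in STAT5 cKO cells with DMEM, against 0.938% of all genes. With DMEM 9 had an unadjusted p under 0.05 in either direction (2824 of all 13005 genes) and DESeq2 called 7 (540 of 13002 genes). With rmGM-CSF 5 were higher and 8 lower (3.57% and 6.24% of all genes), and 5 were higher and 5 lower with 4T1 CM (4.13% and 3.57%). With 4T1 CM Ptgs2, which encodes COX-2, was higher by 1.0 (SE 0.09, adjusted p = 1.84e-06) and the MAP kinase phosphatase gene Dusp1 by 0.64 (SE 0.09, adjusted p = 8.41e-05), and the chemokine gene Ccl2 was lower (-1.75, SE 0.17, adjusted p = 3.08e-06). From DMEM to rmGM-CSF 15 of 20 rose in STAT5 fl/fl and 16 in STAT5 cKO cells, and from DMEM to 4T1 CM 17 rose in each genotype and 1 fell in STAT5 fl/fl cells. The shares of all genes that rose were 15.9% and 13.3% with rmGM-CSF and 19.2% and 19.3% with 4T1 CM. With 4T1 CM 18.2% of all genes fell in STAT5 fl/fl cells. The increases with 4T1 CM in STAT5 fl/fl cells included Il1b (6.30, SE 0.25), Dusp1 (2.76, SE 0.11) and Plaur, the urokinase receptor gene (2.65, SE 0.10).

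Of 14 other immediate early genes, none was called between the genotypes with DMEM by edgeR (0.938% of all genes higher and 1.55% lower). Of the 14, 5 had an unadjusted p under 0.05 (2824 of all 13005 genes) and DESeq2 called 3 (540 of 13002 genes). In STAT5 cKO cells 1 was higher and 5 lower with rmGM-CSF, and 5 were higher and 1 lower with 4T1 CM, against 3.57% and 6.24%, and 4.13% and 3.57%, of all genes. The orphan nuclear receptor genes Nr4a2 (1.91, SE 0.14, adjusted p = 7.35e-08) and Nr4a3 (1.78, SE 0.19, adjusted p = 7.33e-06) were higher with 4T1 CM, and Egr2 was lower (-2.03, SE 0.10, adjusted p = 5.98e-10). From DMEM to 4T1 CM, 13 rose and 1 fell in STAT5 fl/fl cells and 12 rose and 2 fell in STAT5 cKO cells, with Nr4a1 (4.75, SE 0.22), Ier3 (3.94, SE 0.14) and Myc (3.76, SE 0.11) leading in STAT5 fl/fl cells. From DMEM to rmGM-CSF 10 rose in STAT5 fl/fl and 9 in STAT5 cKO cells, against 15.9% and 13.3% of all genes. Those that rose with 4T1 CM stand beside 19.2% and 19.3%, and those that fell beside 18.2% and 18.4%.

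FOS and JUN genes also respond to handling of cells, and 8 heat shock genes were followed for that reason. Their summed level was 795 to 848 CPM in STAT5 fl/fl and 725 to 817 CPM in STAT5 cKO libraries with DMEM, 957 to 1067 and 882 to 944 CPM with rmGM-CSF, and 926 to 1015 and 861 to 894 CPM with 4T1 CM. With both stimuli the sum was lower in the STAT5 cKO libraries, without overlap. Most of it was Hspa8 (692 ± 46.4 CPM in STAT5 fl/fl and 574 ± 17.8 in STAT5 cKO cells with 4T1 CM), and the median log2 difference of the 8 genes was 0.03 with each stimulus. By gene, 1 of 8 was higher in STAT5 cKO cells with DMEM, 3 were higher and 1 lower with rmGM-CSF, and 1 (Hsph1, 0.47, SE 0.07, adjusted p = 0.000274) was higher with 4T1 CM. Over all genes 0.938% were called higher and 1.55% lower with DMEM, 3.57% and 6.24% with rmGM-CSF, and 4.13% and 3.57% with 4T1 CM. From DMEM to 4T1 CM, 3 rose in STAT5 fl/fl cells (Dnaja1, Hsph1 and Hspa8, by 0.33 to 0.41) and 2 fell, against 19.2% and 18.2% of all genes. In STAT5 cKO cells 2 rose and 1 fell, against 19.3% and 18.4%. With rmGM-CSF 4 of the 8 rose in STAT5 fl/fl and 3 in STAT5 cKO cells, and none fell. Of all genes, 15.9% rose and 12.6% fell there in STAT5 fl/fl cells, and 13.3% and 10.2% in STAT5 cKO cells. The summed level of the 8 macrophage markers was higher in the STAT5 cKO libraries of each treatment, at 31150 to 36860 CPM against 24650 to 25050 CPM with DMEM, 34910 to 37990 against 25820 to 27280 CPM with rmGM-CSF, and 36860 to 46650 against 28860 to 29870 CPM with 4T1 CM. Of these markers 2, 1 and 2 of 8 were called higher in the 3 treatments, against 0.938%, 3.57% and 4.13% of all genes. Their median log2 difference was 0.10 for DMEM, -0.05 for rmGM-CSF and -0.07 for 4T1 CM. Most of the sum was Lyz2, at 29210 CPM in STAT5 cKO against 19250 CPM in STAT5 fl/fl cells with 4T1 CM. Those called with 4T1 CM were Lyz2 (0.60, SE 0.12, adjusted p = 0.00291) and Cd14 (0.51, SE 0.08, adjusted p = 0.000364). The 4 fibroblast markers summed to between 0.637 and 1.70 CPM in STAT5 fl/fl and between 1.92 and 5.21 CPM in STAT5 cKO libraries, with Lum at or under the floor throughout. The 5 epithelial markers summed to at most 0.137 CPM with DMEM. With rmGM-CSF they summed to 1.18 to 1.43 CPM in STAT5 fl/fl and at most 0.0491 CPM in STAT5 cKO libraries, and with 4T1 CM to 3.17 to 4.34 and 1.23 to 2.17 CPM. Cdh1 made up most of the sum (3.70 ± 0.898 and 1.48 ± 0.561 CPM with 4T1 CM, and 1.22 ± 0.129 CPM with rmGM-CSF in STAT5 fl/fl cells). The part of any of these in the levels of the AP-1 genes was not tested.

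Genes with the most similar pattern to 5 of the members were ranked by Pearson's r of log2 CPM over the 15 libraries, which fall into 6 groups and so mainly share their group means. For Fos these were Micall2 (r = 0.985), Srxn1 (r = 0.98) and Fam214b (r = 0.978), and for Fosb Antxr2 (r = 0.975), BC030867 (r = 0.973) and Endod1 (r = 0.970). For Jun they were Ptpn1 (r = 0.979), 4930556M19Rik (r = 0.976) and Ucp2 (r = 0.969). Junb was closest to Bcl3 (r = 0.994), Ptgs2 (r = 0.989) and Rhbdf2 (r = 0.987), and Atf3 to Lmo2 (r = 0.979), Slc38a7 (r = 0.976) and P2ry1 (r = 0.975). These values describe the libraries and carry no test.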

How the data were processed

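Reads were trimmed by the authors with Trimmomatic 0.33, aligned to GRCm38 with HISAT2 2.1.0 and counted with featureCounts 1.6.2, by strand and for properly mapped pairs, per the study's methods and processing notes. The authors deposited these fragment counts per gene without normalization, with the exon length of each gene. Total counts per library ranged from 16016736 to 22883108. Here, the 13005 genes that exceeded a CPM of 1 in 2 or more libraries were kept and normalized by the relative log expression method (factors 0.945 to 1.08), as in the study's methods. A model of the 6 groups was fitted to all 15 libraries with the quasi-likelihood F test of edgeR 4.0.16 in R 4.3.3. Benjamini-Hochberg adjustment covered every gene tested in a comparison (threshold 0.01, no minimum fold). SEs were computed from the fold change and its F statistic. Genotypes were compared within treatments, treatments within genotypes, and the interaction compared genotype effects between treatments. P-values measure the spread between replicates, which the study calls biological. No pair of libraries within a group agreed within sampling noise.

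The settings also tried were filterByExpr or no low-count filter, TMM normalization, the likelihood ratio test, the legacy quasi-likelihood test, DESeq2 1.42.0, only the libraries compared, an adjusted p under 0.05, leaving out each replicate number, and the replicate number as a block (limma 3.58.1 for a random effect). The steps were tested on simulated data. Named genes are all members, and from each other list (other bZIP genes, upstream kinases and SRF factors, turnover, AP-1 targets, other immediate early genes, heat shock, and cell type markers) the 3 with the smallest adjusted p among those called for the genotypes with 4T1 CM and for 4T1 CM against DMEM in STAT5 fl/fl cells. For 5 members, the 3 most correlated genes are named. The members and lists were chosen with earlier results of these data known.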

Additional observations from a re-analysis of the deposited data

Results flagged for a closer look

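The effect of STAT5 genotype on 6 members depended on the treatment by the interaction test (adjusted p under 0.01). Against DMEM, the log2 difference between STAT5 cKO and STAT5 fl/fl BMDMs was larger with rmGM-CSF for Fos by 0.99, and it was shifted downward for Fosl2 by -1.48, for Atf3 by -0.65 and for Junb by -0.62. For Fosb it was larger with 4T1 CM than with DMEM by 1.97. Between the stimuli, the difference was smaller with 4T1 CM than with rmGM-CSF for Fos (-1.08) and shifted upward for Maff (1.30), Fosl2 (1.27), Atf3 (0.65) and Junb (0.64). The comparisons share their rmGM-CSF or DMEM libraries, so a member listed for more than 1 of them is not counted as separate evidence. For Junb, the call of rmGM-CSF against DMEM was lost without replicate 112, 115 or 116.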

How the results depend on the processing

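Of 113 member results, which leave out the comparisons of Fosl1 with DMEM, 64 were called. Of these, 60 stayed called under every alternative other than leaving out a replicate, 46 under every alternative, and 0 changed direction. For the genotypes with DMEM, 1 member was called, against 2 without the low-count filter or by the likelihood ratio test and 3 by DESeq2 or at an adjusted p under 0.05. With 4T1 CM, 4 were called, against 2 with only the libraries compared. For the genotype effect of 4T1 CM minus DMEM, 1 was called, against 2 by the likelihood ratio test or at an adjusted p under 0.05 and 0 with only the libraries compared. Without 1 replicate, the number of members called was 0 to 1 for the genotypes with DMEM, 0 to 1 for 4T1 CM minus DMEM, 2 to 4 for 4T1 CM minus rmGM-CSF and 2 to 4 for rmGM-CSF minus DMEM. These fits hold fewer samples, and where 1 STAT5 fl/fl replicate is left, it is assumed to vary like the other groups. The cause of the other changes was not tested. TMM normalization, filterByExpr and the legacy quasi-likelihood test changed no call among the 113. For Fosl1 in STAT5 fl/fl cells the last called the rise with rmGM-CSF over DMEM (6 members called, against 5).

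The results that changed direction were uncalled and did so only without 1 replicate. For rmGM-CSF against DMEM in STAT5 fl/fl cells the log2 change then ran from -0.0523 to 0.28 for Fos, -0.92 to 0.18 for Fosb and -0.32 to 0.0582 for Jun, and for 4T1 CM against rmGM-CSF from -0.35 to 0.19 for Jund. The genotype effect of rmGM-CSF minus DMEM ran from -0.15 to 0.23 for Jun and -0.25 to 0.19 for Batf. That of 4T1 CM minus DMEM ran from -0.22 to 0.00865 for Fos, -0.0723 to 0.11 for Junb, -0.0735 to 0.10 for Atf3 and -0.10 to 0.33 for Batf. That of 4T1 CM minus rmGM-CSF ran from -0.0496 to 0.94 for Fosl1, -0.0564 to 0.24 for Jun, -0.12 to 0.42 for Jund and -0.0266 to 0.25 for Batf. The interaction calls of Junb and Atf3 between the stimuli were lost without 5 and 4 of the replicates in turn (adjusted p up to 0.0614 and 0.0523), and that of Fos without replicate 113 (adjusted p = 0.0573).

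Over all genes, 324 were called between the genotypes with DMEM, against 608 by the likelihood ratio test, 540 by DESeq2 and 47 to 243 without 1 replicate. With 4T1 CM 1001 were called, against 280 with only the libraries compared and 334 to 835 without 1 replicate, and with rmGM-CSF 1275, against 546 to 1010 without 1 replicate. For 4T1 CM minus DMEM 165 were called, against 332, 342, 79 and 295 by the likelihood ratio test, DESeq2, only the libraries compared and the replicate block, and 24 to 99 without 1 replicate. For 4T1 CM minus rmGM-CSF 191 were called, against 302 and 305 by the likelihood ratio test and DESeq2 and 79 to 143 without 1 replicate, and for rmGM-CSF minus DMEM 404, against 134 to 271. At an adjusted p under 0.05 the counts with DMEM and 4T1 CM were 910 and 1957, with rmGM-CSF 2145, and for the 3 genotype effects 622, 423 and 346. The treatments within a genotype gave 3053 to 4894 genes, and 1696 to 4720 without 1 replicate.

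Libraries with the same replicate number deviated together only weakly. The correlation of their deviations from the group means was 0.0926 to 0.213 over 6 pairs in STAT5 fl/fl and 0.0548 to 0.214 over 9 pairs in STAT5 cKO cells, where 8 of 9 of the latter exceeded those between different numbers. With 2 STAT5 fl/fl replicates the deviations mirror each other, so the 6 pairs hold only 3 distinct values. These correlations do not settle whether a number marks 1 mouse, and the main fit treated the libraries as independent. Used as a block, the numbers raised the genes called from 404 to 526 for rmGM-CSF minus DMEM and from 191 to 276 for 4T1 CM minus rmGM-CSF. For rmGM-CSF against DMEM the genes called went from 3704 to 4014 in STAT5 fl/fl and from 3053 to 3314 in STAT5 cKO cells. With the replicate number as a block, 5 members were called for rmGM-CSF against DMEM in STAT5 fl/fl cells, 8 in STAT5 cKO cells, and no member's call changed in any comparison. As a random effect (correlation 0.0681), used for the genotypes because a block cannot be fitted there, it gave 1, 5 and 4 members with DMEM, rmGM-CSF and 4T1 CM. Depth limits Fosl1 most: with at most 3 counts in every DMEM library, its level there cannot be told from 0.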
